A study of Mus musculus with 2 samples.

Results

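The genes described here are the 9 granzymes Gzma, Gzmb, Gzmc, Gzmd, Gzme, Gzmf, Gzmg, Gzmk and Gzmm and the perforin gene Prf1, which are 10 of the 32285 features in the count matrices. They were selected by gene symbol. They were read in single-cell RNA-seq of CD45+ immune cells from subcutaneous tumors of MC38, a colon carcinoma line of C57BL/6 mice, with 1 library from non-irradiated tumors (Control) and 1 from tumors taken 4 days after 20 Gy of local irradiation (IR). Both libraries came from mice of genotype WT, each from 4 pooled tumors, and the methods give mice of 8 to 10 weeks on a C57BL/6J background. In the growth experiments of that study WT stood for mice with floxed Ythdf2, and whether this held for these tumors was not stated. With 1 library per group no test across animals is possible, so no p-value is given, and every interval below is a 95% interval that covers counting error only. The design asks how the cytotoxic genes of tumor-infiltrating NK cells and T cells differed between the irradiated and the non-irradiated tumors.

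Granzymes are serine proteases that cytotoxic lymphocytes store in granules and deliver into a target cell, and perforin is the granule protein that forms the pores through which they enter. Granzyme B cleaves after aspartate and starts the caspase pathway, granzyme A and granzyme K are tryptases, and granzyme M cleaves after methionine or leucine. Granzymes C, D, E, F and G are rodent genes, copies of one another beside Gzmb, and are best known from strongly activated mouse lymphocytes. Resting NK cells of the mouse hold much granzyme A protein, while granzyme B and perforin protein appear after activation.

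In the GENCODE annotation of GRCm38, Gzmb, Gzmc, Gzmd, Gzme, Gzmf and Gzmg lay in 1 cluster of 144.6 kb on chromosome 14, from 56117626 to 56262260, all on the minus strand. Gzma and Gzmk lay on chromosome 13, and Gzmm and Prf1 on chromosome 10. The mRNAs of Gzmd and Gzme were 94.98% identical over 916 aligned bases, and Gzmc was less like the rest of the group, with 79.7% to 81.2% identity to Gzmd, Gzme, Gzmf and Gzmg. No stretch of 90 bases within the last 400 bases of any member's mRNA, the end that 3′ counting reads, was shared with another member, so the UMI counts can tell the copies apart where the reads are that long. The read length is not given in the sources used here.

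The regions just upstream of Gzmc, Gzmd, Gzme, Gzmf and Gzmg are shown because these 5 copies are followed as a group below. In the RefSeq promoter table for GRCm38.p6, which held all 10 members, the 5 windows shared 1 stretch of 20 bases, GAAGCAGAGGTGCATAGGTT, that no other window of the 32851 in the table held. Capitals mark that stretch and an 8-base place whose start lies 12 bases before it, and Gzmb is given for contrast, as it holds neither. Each line runs 5′ to 3′ and ends at the base before the RefSeq start of the gene.
Gzmc, chr14:56234658-56234777, minus strand: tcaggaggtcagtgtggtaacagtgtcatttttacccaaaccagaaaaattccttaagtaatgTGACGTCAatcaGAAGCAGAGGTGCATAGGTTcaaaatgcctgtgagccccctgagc
Gzmd, chr14:56132594-56132713, minus strand: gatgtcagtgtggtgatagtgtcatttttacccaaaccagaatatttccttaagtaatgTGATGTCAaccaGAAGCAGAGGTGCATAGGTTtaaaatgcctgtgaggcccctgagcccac
Gzme, chr14:56120626-56120745, minus strand: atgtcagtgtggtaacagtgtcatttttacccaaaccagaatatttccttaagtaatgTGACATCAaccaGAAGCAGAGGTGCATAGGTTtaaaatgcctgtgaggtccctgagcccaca
Gzmf, chr14:56211408-56211527, minus strand: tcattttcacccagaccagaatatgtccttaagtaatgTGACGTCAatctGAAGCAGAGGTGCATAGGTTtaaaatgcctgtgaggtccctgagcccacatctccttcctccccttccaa
Gzmg, chr14:56159580-56159699, minus strand: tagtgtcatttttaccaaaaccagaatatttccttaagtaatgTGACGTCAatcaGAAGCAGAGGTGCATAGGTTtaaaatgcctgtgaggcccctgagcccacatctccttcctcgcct
Gzmb, chr14:56262335-56262454, minus strand: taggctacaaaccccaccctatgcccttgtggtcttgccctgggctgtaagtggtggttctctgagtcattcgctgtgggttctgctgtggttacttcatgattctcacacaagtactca

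At the 8-base place, Gzmc, Gzmf and Gzmg held TGACGTCA, the cyclic AMP response element, which reads the same on both strands. Counted from 1 at its 5′ end, Gzmd differed from it by C4T and Gzme by G5A. TGACGTCA occurred in 508 of the 32851 windows (1.55%). The letters AACCACA of the RUNX motif, on either strand, were in 7 of the 10 members' windows, among them all 5 of Gzmc to Gzmg, against 4.40% of all windows. The upstream windows of these 5 copies were 86.0% to 95.6% identical to one another. Their matches are therefore not independent of each other, and the count of 7 is no measure of enrichment. The T-box letters CACACCT were in none of the 10, against 5.10% of all windows. These matches are letters in a window and were not set against any binding data.

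The matrices held 4975 Control and 3507 IR barcodes with 1000 UMIs (unique molecular identifiers, 1 per captured RNA molecule) or more, with medians of 6874 and 8036 UMIs. Their 32285 features were counted against mm10. Cells were assigned by genes fixed for this purpose. The NK gate took barcodes with 2 or more UMIs of Ncr1 and Klrb1c, which encode the receptors NKp46 and NK1.1, and held 382 Control and 452 IR barcodes. T cells held a UMI of Cd3d or Cd3g outside the NK gate, and were called CD8 T (442 and 260) with Cd8a or Cd8b1 and no Cd4, or CD4 T (164 and 105) with the reverse. T barcodes with both (39 and 25) or with neither (432 and 251) were left out of these 2 gates. A monocyte/macrophage gate (893 and 245), with 2% or more of UMIs from a macrophage list that includes C1qa, Apoe and Lyz2, served as the cells that should lack these genes. The labels also name a narrower CD11b+Ly6Chi sort, but lymphocytes were present in both libraries. Klre1, an NK receptor not used in the gate, was found in 83.2% and 88.1% of NK barcodes, Control before IR. Klrk1 was near these values, at 83.8% and 87.8%. Lower, and less even between the libraries, were Eomes (42.4% and 67.7%) and the receptor Klra8 (26.2% and 40.3%). Trac, the T cell receptor alpha chain, was in 86.7% and 88.5% of CD8 T barcodes. Of NK barcodes, 26.4% in Control and 27.0% in IR also held Cd3d or Cd3g. No barcode sequence in the 3 lymphocyte gates occurred in both libraries.

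Over all barcodes, every member was at a higher level in IR than in Control. Together the 10 genes made up 2714 CPM (UMIs per 1000000 UMIs) in Control (114407 UMIs) and 6164 CPM in IR (234592 UMIs), a ratio of 2.27. Gzmb was at 203 CPM in Control and 809 in IR, a ratio of 3.995. At least 2-fold higher were 8 of the members, and the other two, Gzmc and Gzmm, stood at ratios of 1.69 and 1.96. Of the 14199 features with 20 or more UMIs over both libraries, 5.83% were at least 2-fold higher in IR and 2.61% at least 2-fold lower, which no member was. NK barcodes were 7.68% of all barcodes in Control and 12.9% in IR, so the sum over all barcodes moves with the make-up of the library as well as with the level per cell.

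The NK gate held most of the UMIs of 8 members in IR, and in Control it did so for Gzma, Gzmc, Gzmd, Gzme and Prf1. For Gzmc it held 82.1% of the Control and 84.7% of the IR UMIs. For Gzmb the NK gate held 49.98% and 64.98%, and the CD8 T gate 24.4% and 18.1%. The exceptions were Gzmk and Gzmm. The CD8 T gate held 67.5% of the 77 Control UMIs and 76.6% of the 192 IR UMIs of Gzmk, and the NK gate held 11.5% and 44.6% of those of Gzmm. Both were scarce throughout, with Gzmm at 52 UMIs in the whole Control library and 92 in IR. T barcodes with none of Cd4, Cd8a and Cd8b1 held 35.5% of the Control and 1.96% of the IR UMIs of Gzmg. In them Gzmc to Gzmg were lower in IR as a share of all UMIs (3433211 Control and 2519582 IR). Gzmc had 2956 and 893 UMIs, Gzmd 1289 and 321, Gzme 640 and 118, Gzmf 1543 and 153, and Gzmg 1290 and 133. By the same measure Gzma (406 and 745), Gzmb (728 and 1001) and Prf1 (175 and 168) were higher.

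In the NK gate the order of levels was led by Gzmc, and the differences between Control and IR were unequal among the members. Levels are given as CPM, here UMIs per 1000000 UMIs of the gate, which count molecules from their 3′ ends and carry no length correction. Gzmb was at 1142 (1108 to 1177) in Control and 2862 (2823 to 2902) in IR, a log2 ratio of 1.33. Gzmf was at 1614 and 3784, a log2 ratio of 1.23. Gzma, the tryptase of resting NK cells, was at 2111 and 3523, and Prf1 at 537 and 872, log2 ratios of 0.74 and 0.70.

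Gzmc was the only one of the 10 that was lower in IR in this gate, at 12491 (12378 to 12605) in Control and 10529.8 (10454 to 10606) in IR, a log2 ratio of -0.25. It was still the most abundant member in both libraries. Its neighbours Gzmd, Gzme and Gzmg were higher in IR, with log2 ratios of 0.52, 0.62 and 0.95 and IR levels of 2809, 1133 and 862. Gzmk (8 and 37 UMIs) and Gzmm (6 and 41 UMIs) rested on few UMIs, and Gzmn, a further granzyme gene of the chromosome 14 cluster, had 4 and 9 UMIs. At least 2-fold higher were 4 of the 10 members (Gzmb, Gzmf and the scarce Gzmk and Gzmm), against 4.49% of the 10613 features tested, and none was 2-fold lower, against 1.77%. The median log2 ratio of the members was 0.84 and that of all tested features -0.03. Without the 5 barcodes of each library richest in the gene, the log2 ratio was 1.96 for Gzmf. For Gzmk and Gzmm it was 1.996 and 3.70, but this left out most of their 8 and 6 Control UMIs. Those 2 values therefore say little about the level.

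**Figure D1:**
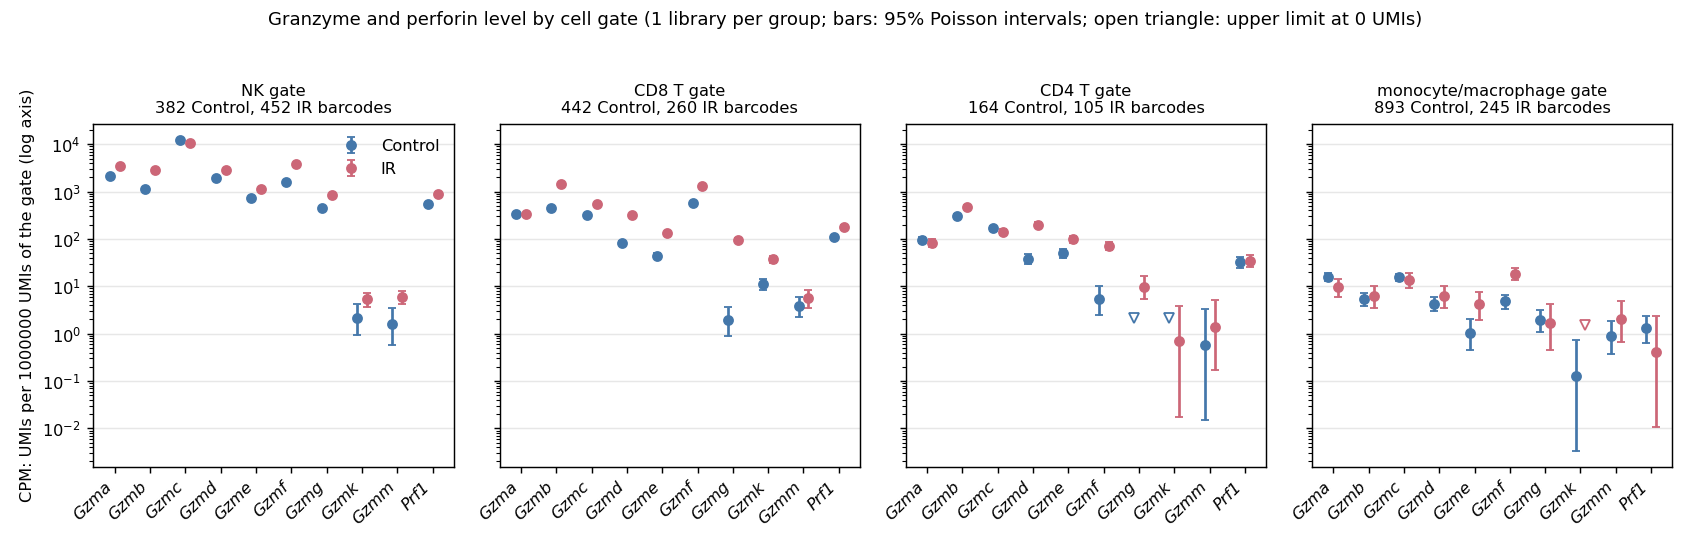
Levels of the 10 genes in the NK, CD8 T, CD4 T and monocyte/macrophage gates, in CPM of the gate on a log axis, for the 1 Control and the 1 IR library, with 95% Poisson intervals. In the NK gate Gzmc is the highest point of both libraries and the only member with the IR point below the Control point, while in the monocyte/macrophage gate no member reaches 20.

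The share of NK barcodes that held each gene was compared after every barcode was thinned to 1000 UMIs, so that depth is equal. Gzma was present in 42.1% (37.1 to 47.3) of the Control barcodes and in 69.9% (65.5 to 74.1) of those of IR. Gzmb was found in 45.8% and 65.0%, Prf1 in 38.5% and 50.4%, and Gzmf in 9.95% and 16.8%. For these 4 members the 2 intervals did not overlap. How many of all features had separate intervals was not computed, so this count has no background beside it. The share with Gzmc was 60.2% (55.1 to 65.2) in Control and 52.0% (47.3 to 56.7) in IR, with overlapping intervals, and those of Gzmd (21.5% and 21.7%), Gzme (16.8% and 16.4%) and Gzmg (5.76% and 7.08%) also overlapped.

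In the monocyte/macrophage gate, whose median depth was 7790 UMIs in Control and 8901 in IR against 8531 and 11963 in the NK gate, the thinned share was at most 1.68% in Control and at most 4.49% in IR. Gzmc was the gene with both maxima, and Gzmf was at 1.01% and 4.08% there, 2 intervals that did not overlap. Before thinning, Gzmf was found in 16.2% and 31.2% of NK barcodes and in 3.70% and 13.9% of monocyte/macrophage barcodes. Among the NK barcodes with Gzmf the median count was 11 UMIs in Control and 2 in IR. The part of free RNA in the Gzmf shares was not tested.

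A stricter share, chosen after these values were seen, counted only barcodes in which the gene was 0.1% of all UMIs or more, with 3 UMIs or more. It removed nearly all of the monocyte/macrophage background, with 4 Control barcodes for Gzma and 1 IR barcode for Gzmf left in that gate and none for the other 8 members. On this measure, Gzma was carried by 40.1% of NK barcodes in Control and 66.8% in IR, Gzmb by 34.8% and 58.8%, and Prf1 by 19.9% and 35.0%. The share with Gzmc was lower in IR, 43.4% (38.7 to 48.1) against 56.5% (51.4 to 61.6), and those intervals did not overlap. Gzmf was carried by 8.12% and 12.8%, with overlapping intervals.

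**Figure D2:**
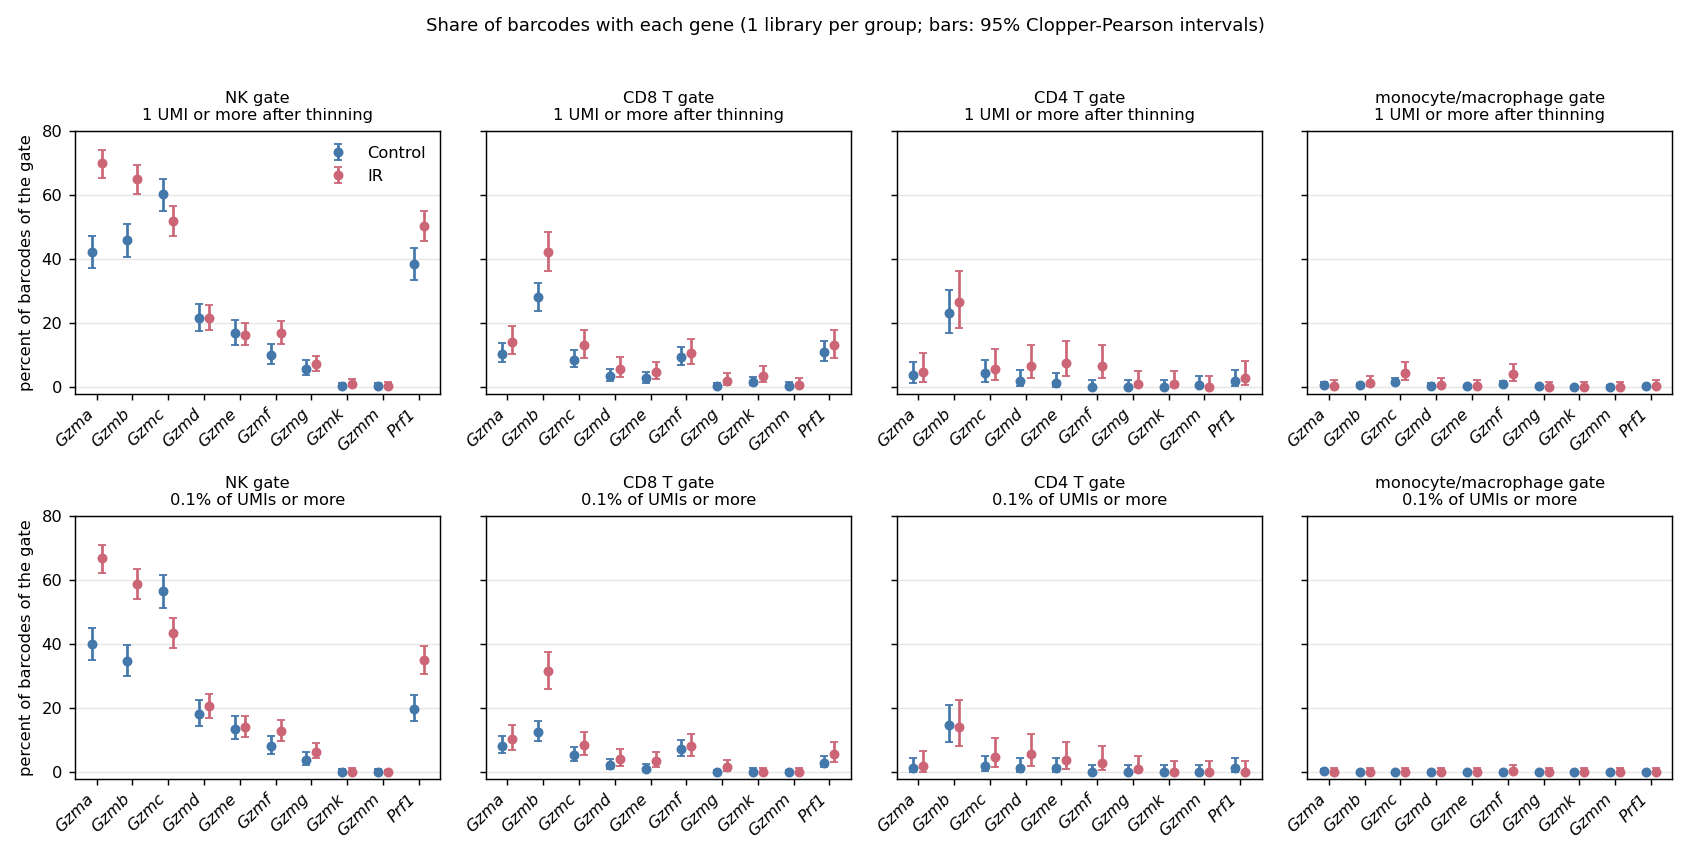
Percent of barcodes of each gate with each gene, above as 1 UMI or more after thinning to 1000 UMIs and below as 0.1% of UMIs or more, for Control and IR with 95% Clopper-Pearson intervals. In the NK gate Gzma, Gzmb and Prf1 lie higher in IR in both rows, in the CD8 T gate Gzmb does, and the monocyte/macrophage points lie near 0.

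The NK gate was not uniform in either library. Each NK barcode was placed by whether its UMIs of conventional NK genes (Itgam, Klra4, Klra8, Klra9, S1pr5, Cx3cr1, Klf2 and Zeb2) exceeded those of genes of tissue-resident innate lymphocytes (Itga1, Cxcr6, Tnfsf10, Itgb3, Ahr and Il7r), with no granzyme in either list. The conventional side held 54.2% (207 barcodes) in Control and 75.0% (339) in IR, and the ILC1-like side 37.2% (142) and 18.8% (85). The remaining barcodes were tied.

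The members divided the 2 sides. Gzma was at 2842 CPM on the conventional side and 1103 on the ILC1-like side in Control, and at 4066 and 1764 in IR. Gzmc showed the opposite order, with 6590.3 on the conventional and 21575 on the ILC1-like side in Control, and 5706 and 24320 (24319.8) in IR. After thinning, Gzmc was found in 41.5% and 42.2% of conventional barcodes and in 85.9% and 89.4% of ILC1-like barcodes, Control before IR. Gzma was found in 58.0% and 81.7% of conventional barcodes, intervals that did not overlap.

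Within the ILC1-like side Gzmc was higher in IR, by 0.17 on the log2 scale, and within the conventional side lower, by -0.21 (-0.24 to -0.18). Gzmf differed most between the sides, with 1521 and 1723 CPM on the conventional side and 1818 and 11377 on the ILC1-like side, log2 ratios of 0.18 (0.12 to 0.24) and 2.65 (2.59 to 2.71). Of these UMIs, the 5 richest barcodes held 88.4% and 56.5% on the conventional side and 67.6% and 51.8% on the ILC1-like side. Without them the log2 ratios were 2.07 and 3.34, and that on the conventional side was thus set by 5 barcodes of each library. Gzmb was higher in IR on both sides alike, with log2 ratios of 1.32 and 1.33, as was Prf1 with 0.71 and 0.74.

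**Figure D3:**
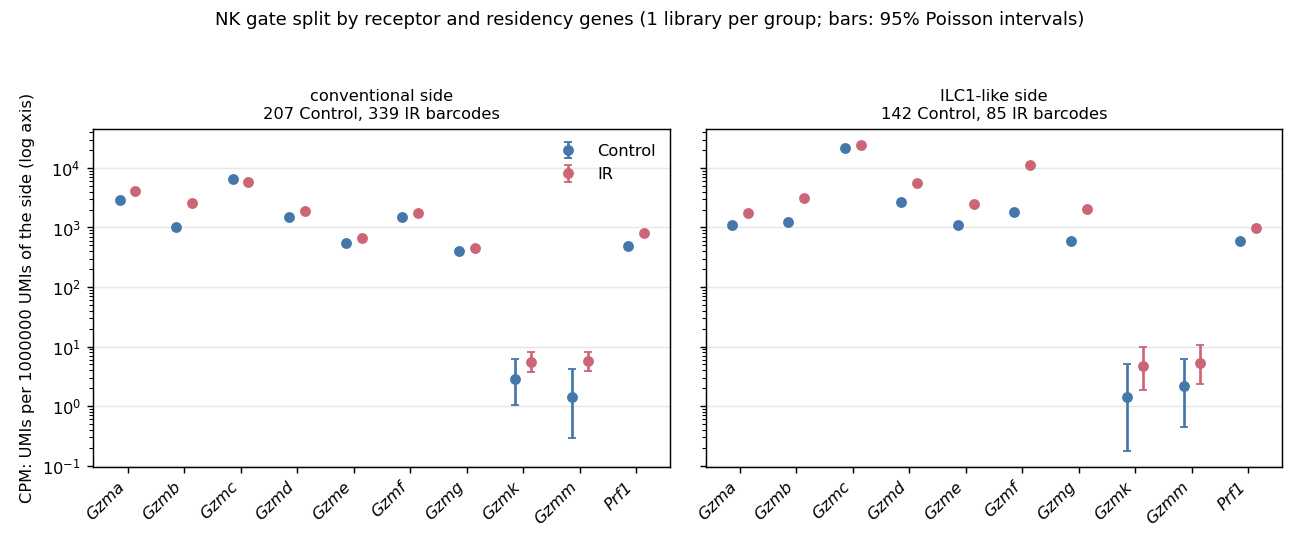
Levels of the 10 genes on the conventional and the ILC1-like side of the NK gate, in CPM of the side on a log axis, for Control and IR with 95% Poisson intervals. Gzma lies higher on the conventional side and Gzmc on the ILC1-like side in both libraries, and Gzmf in IR reaches 11377 on the ILC1-like side.

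In the CD8 T gate Gzmb was the member that differed most clearly between the libraries. It was at 442 CPM (424 to 462) in Control and 1422 (1385 to 1460.2) in IR, a log2 ratio of 1.68. The thinned share of barcodes was 28.1% (23.9 to 32.5) in Control and 42.3% (36.2 to 48.6) in IR. Gzmb was the only one of the 10 members whose intervals did not overlap, a count again without a background of all features. At 0.1% of UMIs or more it was carried by 12.7% and 31.5% of CD8 T barcodes. In the monocyte/macrophage gate the thinned share of Gzmb was 0.560% in Control and 1.22% in IR.

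Gzma, at 333 and 337 CPM, gave a log2 ratio of 0.02 (-0.09 to 0.12). Prf1 was at 108 and 179, a log2 ratio of 0.74, with thinned shares of 11.1% and 13.1% whose intervals overlapped. Gzmk, a granzyme of memory-like CD8 T cells, was at 11.1 (52 UMIs) and 37.5 (147 UMIs), a log2 ratio of 1.76, or 1.65 without the 5 richest barcodes. Before thinning 36 of 442 Control barcodes and 54 of 260 IR barcodes held it, against 1 of 893 and 0 of 245 in the monocyte/macrophage gate, where 0 allows a share of up to 1.49% (95% limit).

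The copies Gzmd, Gzme, Gzmf and Gzmg were also at least 2-fold higher in CD8 T cells of the IR library, but few barcodes carried them. Gzmf was at 567 and 1293 CPM, a log2 ratio of 1.19, and Gzmd at 83.2 and 319, a log2 ratio of 1.94. Gzme was at 44.7 and 131, and Gzmg at 1.91 (9 UMIs) and 96.4 (378 UMIs). The 5 richest of 260 IR barcodes held 74.1% of the Gzmf UMIs, 81.8% of Gzmd, 75.6% of Gzme and 98.1% of Gzmg.

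Without the 5 richest barcodes of each library the log2 ratios were 0.42 for Gzmf, 0.71 for Gzmd, 0.57 for Gzme and 1.51 for Gzmg. With all barcodes, 6 of the 10 members were at least 2-fold higher, against 3.27% of the 10448 features tested. Without the 5 richest barcodes 3 were (Gzmb, Gzmg and Gzmk), and Gzmg then stood on 0.65 and 1.84 CPM. None was 2-fold lower, against 3.46% of features. The median log2 ratio of the members was 1.37 and that of all tested features -0.05.

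**Figure D4:**
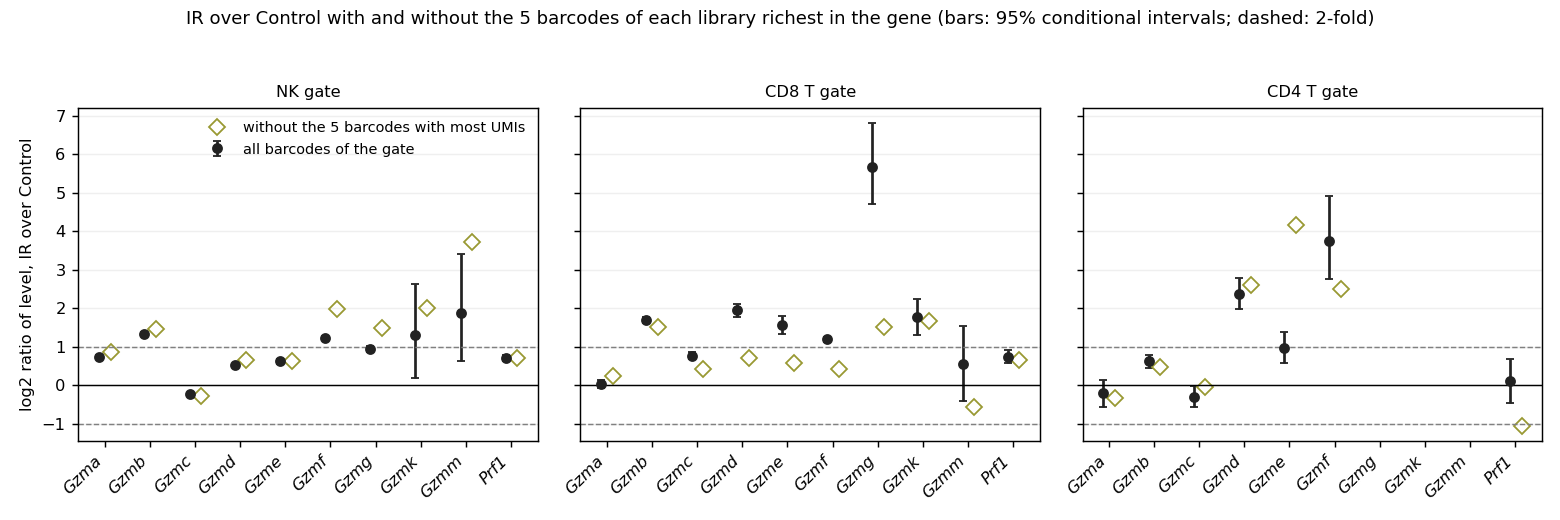
log2 ratio of the level in IR over Control for members with 20 or more UMIs over both libraries in the NK, CD8 T and CD4 T gates, with all barcodes (filled, 95% conditional intervals) and without the 5 barcodes of each library richest in that gene (open). In the CD8 T gate the open points of Gzmd, Gzme and Gzmf lie below 1, the 2-fold line, and those of Gzmb and Gzmk stay above it.

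Among CD8 T barcodes with the cell cycle genes Mki67 or Top2a (173 in Control, 88 in IR), Gzmb was at 445 and 1898 CPM, a log2 ratio of 2.09 (1.99 to 2.19). Among those without them (269 and 172) it was at 439.8 and 980.1, a log2 ratio of 1.16 (1.05 to 1.27). The thinned shares were 27.7% and 47.7% with the cycle genes, intervals that did not overlap, and 28.3% and 39.5% without them. In Control the 2 levels were nearly equal, and in IR the level with the cycle genes was the higher.

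CD4 T cells held less of every member than NK cells in both libraries, with Gzmb leading. Gzmb was at 310 CPM (284 to 338) in Control and 475 (439.6 to 512) in IR, a log2 ratio of 0.61, with thinned shares of 23.2% and 26.7% whose intervals overlapped. The share was larger where Foxp3, the factor of regulatory T cells, was found. With Foxp3 (55 and 30 barcodes) Gzmb was in 47.3% of Control and 60.0% of IR barcodes, and without it (109 and 75) in 11.01% and 13.3%. Its level with Foxp3 was 616 and 889.7 CPM, against 138 and 289 without. The 5 richest barcodes with Foxp3 held 46.8% of the Control and 61.9% of the IR UMIs of Gzmb. Without those barcodes the levels with Foxp3 were 405 and 436 CPM, a log2 ratio of 0.11 in place of 0.53.

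The other members in CD4 T cells rested on few barcodes. Gzmf was at 5.31 CPM in Control and 70.5 in IR, Gzmd had 65 and 285 UMIs, and Gzmg 0 and 14. Against a floor of 3 counts Gzmg was at least 5.52-fold higher. Its 14 IR UMIs were below the 20 set for the fold count, and 1 of 105 IR barcodes held 71.4% of them. The 5 richest barcodes held 81.2% of the IR UMIs of Gzmf and 94.7% of those of Gzmd. Of the 7 members with 20 or more UMIs, 2 (Gzmd and Gzmf) were at least 2-fold higher, against 3.73% of 8703 features, and none was 2-fold lower, against 3.81%. The median log2 ratio of these 7 was 0.61 and that of all tested features -0.03. Gzmf was the only member whose thinned intervals did not overlap, with 0 of 164 Control barcodes, which allows up to 2.22%, and 7 of 105 IR barcodes (6.67%), where the monocyte/macrophage gate gave 1.01% and 4.08%. The share of all features with separate intervals was not computed here either.

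Gzmc gave a log2 ratio of -0.30 (-0.57 to -0.03) in CD4 T cells, from 170.0 and 138 CPM, of which the 5 richest barcodes held 89.2% and 87.4%. Weighting each barcode equally turned the ratio to 0.66, and leaving out barcodes with macrophage RNA turned it to 0.48. Prf1 was scarce, at 32.5 and 34.9 CPM, and the ratio of 0.10 on the log2 scale had an interval of -0.48 to 0.68. Gzma in CD4 T cells turned from -0.22 to 0.98 with a stricter NK gate of 3 UMIs, so no direction is given for it.

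Thinned to 1000 UMIs, single NK barcodes held more of the members than single T cell barcodes did. The mean number of members per NK barcode was 2.41 in Control and 3.01 in IR, against 0.760 and 1.10 in CD8 T and 0.366 and 0.629 in CD4 T barcodes. NK barcodes with none of the 10 were 10.5% in Control and 3.98% in IR. In the CD8 T gate 57.0% and 40.8% held none, intervals that did not overlap (52.3 to 61.7 and 34.7 to 47.0).

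Gzmd, Gzme, Gzmf or Gzmg in NK cells were found mostly beside Gzmc. Of the NK barcodes with any of these 4, 94.5% in Control and 87.3% in IR also held Gzmc, against 46.3% and 37.1% of the others. In CD8 T cells this was 37.7% and 51.4%, against 4.63% and 7.11%. Gzma and Gzmc tended to be apart in NK cells. In Control, Gzma was found in 28.3% of the NK barcodes with Gzmc and in 63.2% of those without it, and in IR in 59.1% and 81.6%. Prf1 was found in 50.3% and 59.5% of the NK barcodes with Gzmb, against 28.5% and 33.5% of those without it. These shares pair genes within 1 library and carry the depth and free RNA of that library.

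The genes that most resembled the members over single NK barcodes differed between Gzma and the group of Gzmc to Gzmg. Likeness was the lower of the 2 libraries' Spearman correlations over 382 Control and 452 IR barcodes, thinned to 1000 UMIs, among 7556 genes. For Gzma the 5 highest were Nkg7, a granule membrane protein, at 0.31, the chemokine Ccl5 at 0.28, Malat1 at 0.25, the receptor Klra4 at 0.24 and Dusp2 at 0.24. For the sum of Gzmc to Gzmg they were Ifitm2 at 0.37, Thy1 at 0.28, and Rpl32, Sema6d and Rps18 at 0.24 each. For Gzmb 3 genes passed 0.2, namely Prf1 at 0.27, Nkg7 at 0.23 and Gzma at 0.22. In CD8 T cells only Gzmf did for Gzmb, at 0.21. The sum of Gzmc to Gzmg correlated with Gzma at -0.37 in Control and -0.34 in IR. These are weak correlations in sparse counts and are given as a description.

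The lists of the granule pathway are short, so a count of 0 or 1 past 2-fold says little when set against the background of all features. That background was 4.49% higher and 1.77% lower in the NK gate and 3.27% and 3.46% in the CD8 T gate. Of 12 genes of granule content, loading and release with 20 or more UMIs, none was 2-fold higher or lower in NK or CD8 T cells, with median log2 ratios of 0.11 and 0.17. Srgn, the proteoglycan that packs granzymes, was at 1639.7 and 2370 (2369.7) CPM in NK cells, a log2 ratio of 0.53, and at 0.83 on the same scale in CD8 T cells. Ctsc, the protease that activates the granzyme precursors, gave 0.75 and 0.31. Ctsw, a cathepsin of cytotoxic cells, was lower in NK cells of the IR library, at 804 and 477, a log2 ratio of -0.75, and gave -0.01 (-0.13 to 0.10) in CD8 T cells.

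Of 4 serpins that inhibit granzymes, 0 passed 2-fold in either gate, which is near that background. Serpinb9, the inhibitor of granzyme B, gave 0.01 (-0.09 to 0.11) in NK cells and 0.15 (-0.03 to 0.33) in CD8 T cells. Of 4 death ligands and cytokines, 1 was at least 2-fold higher in each gate, and 1 was 2-fold lower in NK cells and 0 in CD8 T cells. Tnf was higher in IR in both gates, at 23.8 and 93.8 CPM in NK cells and at 53.2 and 202 in CD8 T cells, log2 ratios of 1.98 and 1.93. Tnfsf10, which encodes TRAIL and is in the ILC1-like list, was at 32.9 and 13.6 in NK cells, a log2 ratio of -1.28. Ifng gave 0.05 in NK cells and -0.54 in CD8 T cells.

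Of 8 transcription factors, 1 was 2-fold lower, against 1.77% of all features in NK and 3.46% in CD8 T cells. Tox, a factor of exhausted T cells and of NK development, was lower in IR, with log2 ratios of -1.29 in NK and -1.18 in CD8 T cells. Eomes and Tbx21, the T-box factors of cytotoxic lymphocytes, went opposite ways in NK cells, with 0.33 (0.15 to 0.51) and -0.68 (-0.89 to -0.47). Prdm1 and Zeb2, which is in the conventional NK list, were higher in both gates, with 0.81 and 0.63 in NK and 0.73 and 0.35 in CD8 T cells. So were Id2 (0.30 in NK and 0.35 in CD8 T cells), Runx3 (0.35 and 0.38) and Eomes, which gave 0.86 in CD8 T cells. None of 10 receptors of inducing cytokines passed 2-fold in either gate, a count near the same background, and the median log2 ratios were -0.07 and 0.26.

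Outside the lymphocytes, Gzmb was found in mast cells and basophils. This gate (Mcpt8, Ms4a2, Cpa3 and Fcer1a, 31 Control and 58 IR barcodes) held Gzmb at 426 and 425 CPM (42 and 105 UMIs), with thinned shares of 16.1% and 22.4%. Prf1 had 0 UMIs there in both libraries, where 3 counts would be 30.5 and 12.1 CPM, and Gzma 0 in Control and 5 in IR. In dendritic cells, monocyte/macrophages and stromal cells each member was at 28.6 CPM or less. That limit does not cover the neutrophil and B cell gates. Neutrophils (39 Control and 168 IR barcodes) held 9 and 38 UMIs of Gzmc, and B cells (23 and 9) held 0 and 3.

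Droplets with 10 to 100 UMIs, which hold free RNA and no cell, carried these genes in both libraries and more so in IR. The 10 members together were at 3407 CPM in the 66977 Control droplets and 12603 in the 75490 IR droplets, a log2 ratio of 1.89. Gzmf was at 362 and 3283, a log2 ratio of 3.18, and its IR level was 3.36 times that over all cell barcodes, against 1.03 times in Control. Gzme and Gzmd followed in IR with 2.65 and 2.44 times, while Gzma, Gzmb, Gzmc and Gzmg were at 1.59 to 1.77 times and Prf1 at 1.08 times.

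The Gzmf molecules were spread over many droplets, as 11.1% of the IR droplets held 1 or more, the highest held 8 UMIs and the 100 richest held 4.13% of the total. Other lymphocyte genes gave ratios in IR below those of Gzmf, Gzme and Gzmd, with 2.13 for Ncr1, 1.87 for Trac, 1.79 for Nkg7 and 1.29 for Klrb1c. Ncr1, Trac and Nkg7 stood above Gzma, Gzmb, Gzmc, Gzmg and Prf1. The macrophage genes C1qa, Apoe and Lyz2 gave 0.956 to 1.18. The level in the monocyte/macrophage gate was 0.567% of the droplet level for Gzmf in IR and 0.357% for Gzmc. In CD4 T cells Gzmf was at 1.47% of the droplet level in Control and 2.15% in IR. In CD8 T cells Gzmf was at 156% and 39.4%, and in NK cells at 446% and 115%. Gzmb was at 249 CPM in the Control droplets and 1430 in the IR droplets, a log2 ratio of 2.52. Its level in CD8 T cells was 178% of the droplet level in Control and 99.5% in IR. How much of each lymphocyte level was free RNA was not tested.

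**Figure D5:**
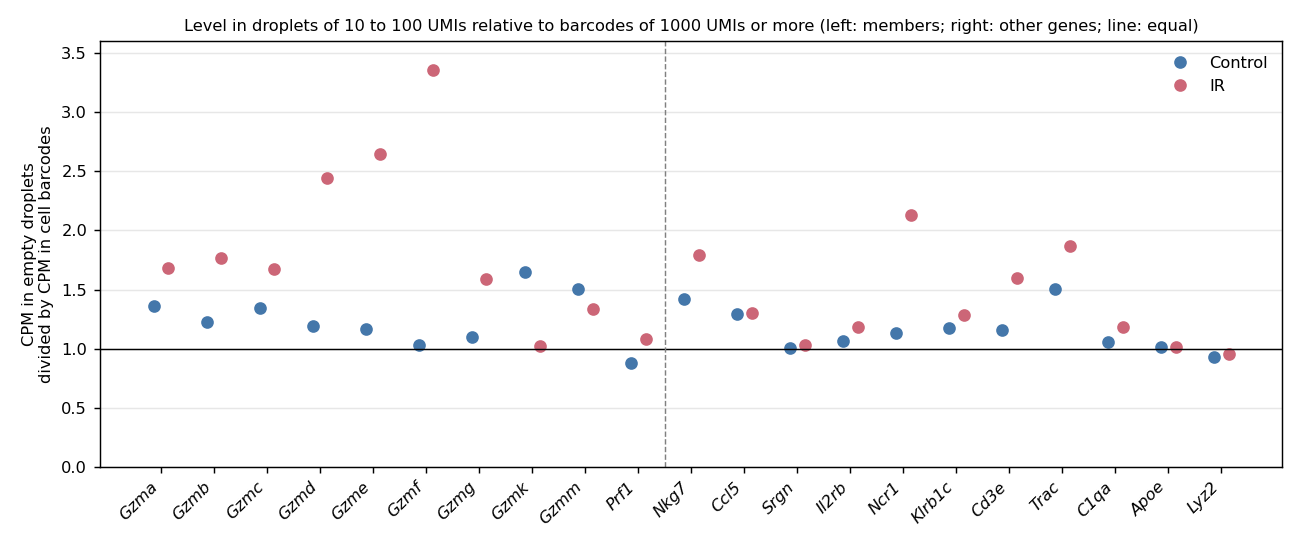
Level in empty droplets (10 to 100 UMIs) divided by the level over all barcodes of 1000 UMIs or more, both in CPM, for the 10 members and 11 other genes chosen after the values were seen, in Control and IR. In IR, Gzmf (3.36), Gzme (2.65) and Gzmd (2.44) lie above every other gene shown, and in Control these 3 lie between 1.03 and 1.19.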

How the data were processed

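The authors deposited unfiltered UMI count matrices from 10x Chromium 3′ libraries, made with Cell Ranger per the methods (version 6.0.1, while the matrix headers name an earlier one) against mm10 with the GENCODE vM23 annotation. The counts are raw UMIs per gene and barcode, with no normalization and no call of cells.

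From these counts, barcodes with 1000 UMIs or more were kept and gated by the marker genes named above. Gates other than NK and T held no Cd3d, Cd3g, Ncr1 or Klrb1c, and 2211 Control and 1604 IR barcodes stayed unassigned, many of them under the 2% set for the monocyte/macrophage gate. Ncr1 was in 2.08% and 2.99% of the unassigned barcodes and Klrb1c in 3.30% and 4.86%. The unassigned barcodes held 29.5% of the Control and 10.4% of the IR UMIs of Gzmf, and 17.4% and 2.44% of those of Gzmg. For Gzma they held 15.3% and 15.7%, and for Prf1 15.0% and 11.9%. Levels are CPM, the UMIs of a gene per 1000000 UMIs of the gate. Levels carry exact Poisson intervals, ratios of IR over Control exact conditional intervals and shares exact Clopper-Pearson intervals, all at 95%. PCR copies were collapsed by UMI, and the intervals cover counting error only, neither animal nor library. A feature counted as 2-fold different at a ratio of 2 with 20 or more UMIs over both libraries. Shares used 1 draw without replacement to 1000 UMIs. All 10 members were named in each gate, and of the pathway lists those past 2-fold, with others chosen after their values were seen.

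Members and lists were chosen with earlier results of these data known. Doublets were not called, and leaving out the 6% of barcodes with most UMIs was tried instead. The ratio and thinning code was tested on simulated data. Other scalings, gates, depths and filters, including TMM factors from edgeR 4.0.16, were tried. Computations used numpy 2.4.6, scipy 1.17.1 and pandas 2.3.3. Member positions came from GENCODE vM21, promoters from RefSeq, and protein sequences were not analysed here.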

Additional observations from a re-analysis of the deposited data

Results flagged for a closer look

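The log2 ratios of Gzmc differed in sign between gates. The log2 ratio of IR over Control was -0.25 in the NK gate and 0.76 in the CD8 T gate, and -0.30 in the CD4 T gate, with each interval on 1 side of 0. The CD8 T value was 0.41 without the 5 richest barcodes of each library, and among CD8 T barcodes without Mki67 or Top2a it went from 0.33 to -0.33 without them. The differences between gates were not tested, and the CD4 T value changed direction under 4 of the alternatives. The genes were also found in data outside the gates, as the 10 members stood at 12603 CPM (UMIs per 1000000 UMIs) in empty droplets of the IR library, against 3407 in those of Control.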

How the results depend on the processing

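No paired analysis was possible because each group has 1 library, and for the same reason no replicate could be left out. In the whole NK, CD8 T and CD4 T gates no member ratio past 2-fold, on 20 or more UMIs, changed direction. Of the 112 counts of members and shares of the NK split recomputed under the alternatives, 98 stayed within 1.5 times (counts) or within the interval of the reported value (shares). The 14 others follow. In the CD8 T gate, members at least 2-fold higher numbered 3 without the 5 richest barcodes of each gene (6 with them), an alternative chosen after the data were seen. In the CD4 T gate they numbered 5 with no filter on low counts and 4 with an NK gate free of Cd3d and Cd3g (2 otherwise), and 1 member (Prf1 without the 5 richest barcodes, Gzma without the 6% of barcodes with most UMIs) was 2-fold lower. Members with a higher share of barcodes in IR and separate intervals numbered 4 in the CD8 T gate without thinning (1 with it). In the CD4 T gate they numbered 0 at 2000 UMIs, 0 without barcodes of macrophage RNA and 0 at 0.1% of UMIs or more (1 otherwise), and in the NK gate the lower ones numbered 1 at 0.1% of UMIs or more, which was Gzmc. Without the Klra genes the conventional side held 33.5% of NK barcodes in Control and 50.9% in IR, and the ILC1-like side 52.1% and 32.7%. The cause of these shifts was not tested. For single genes, 447 of 543 recomputed values stayed within the interval of the reported value. In the CD4 T gate Gzmc turned to 0.89 with the NK gate free of Cd3d and Cd3g, to 0.49 without the 6% of barcodes with most UMIs, to 0.48 without macrophage RNA and to 0.66 with barcodes weighted equally. TMM factors moved all ratios by at most 0.04 on the log2 scale. Depth limits Gzmk and Gzmm, which have few UMIs, and the CD4 T gate, which has few barcodes. In subsets of the T cell gates single members past 2-fold did turn without the 5 richest barcodes, as Gzmd among CD8 T barcodes without Mki67 or Top2a, from 1.40 to -1.44.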
